A study of Mus musculus with 22 samples.

Results

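The 9 genes below were followed: Ss18 and its paralog Ss18l1, the noncanonical BAF genes Brd9, Bicra and Bicral, and the PBAF genes Pbrm1, Arid2, Brd7 and Phf10. They were chosen by name, as subunits that belong to the assemblies of the SWI/SNF chromatin remodeller other than canonical BAF, or, for Ss18 and Ss18l1, to canonical and noncanonical BAF alike. All 9 had a row among the 48440 gene IDs of the deposited counts, and all 9 were among the 18929 genes with enough counts to be tested.

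SWI/SNF complexes use ATP to slide or eject nucleosomes, and mammalian cells build them in distinct forms around an ATPase, SMARCA4 or SMARCA2. Canonical BAF carries an ARID1 subunit and the core subunit SMARCB1, PBAF carries ARID2, PBRM1, BRD7 and PHF10 together with SMARCB1, and noncanonical BAF is built on BRD9 with BICRA or BICRAL and contains no SMARCB1. In synovial sarcoma the start of SS18 is fused to an SSX gene, and the fusion protein enters the BAF forms that hold SS18. Loss of SMARCB1 is the hallmark of rhabdoid tumours, and noncanonical BAF is the form that normally lacks it.

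The study measured RNA in mouse tumours of 3 genotypes, to set the fusion and the loss of Smarcb1 (also called Snf5) against each other and against their combination. The labels give the genotype SS18-SSX+/- for 6 libraries, of which 3 have Myf5 in their title and 3 state no Cre. SNF5-/- is given for 8 libraries, called Snf5-null here, 5 with TATCre and 3 with Myf5 in the title. Both lesions together, SS18-SSX+/- and Snf5-/-, are given for 8 libraries, called combined, 4 with TATCre and 4 with Myf5Cre. Myf5Cre is a recombinase driven by Myf5, a gene of muscle progenitors, and TATCre is a recombinase protein that enters cells, so the cells hit first differ between the Cre labels. No normal tissue was among the libraries, and age, sex and tumour site are not among the labels used here. The strain label reads C57BL/6 in 1 library and carries another number after the slash in each of the other 21. The labels do not say that each library is a separate animal, and 2 Snf5-null TATCre libraries, N43L and N43R, carry nearly the same tag. The p-values therefore measure the spread between these libraries, part of which may be technical.

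The libraries held between 8642648 and 25177722 counts each, and no pair of libraries in a group agreed within counting noise. The lowest chi-square per degree of freedom within a group was 39.7, for combined Myf5Cre N3 and N4. It was 51.8 for N43L and N43R and 63.7 for the Snf5-null Myf5Cre libraries N31 and N33. Combined TATCre N49 had the highest, 417 with 78780. Its chi-square per degree of freedom was 341 to 417 with the other libraries of its group, beside 184 to 235 among those. Whether N3 and N4 come from separate animals is not stated. Libraries of the Snf5-null and combined genotypes share 1 number series in the descriptions, while the SS18-SSX libraries have 2 others. Number series and SS18-SSX genotype therefore cannot be told apart in any comparison with SS18-SSX tumours. No SS18-SSX library states TATCre, and every Snf5-null and combined library states TATCre or Myf5. These comparisons over all groups thus also set TATCre libraries against libraries with no Cre stated. Smarcb1, the targeted gene, had 47.1 to 111 CPM (counts scaled to a common library size) with the fusion alone. It had 10.6 to 26.9 CPM in the Snf5-null genotype and 0.909 to 3.66 CPM with both lesions, and these ranges did not overlap. Which exons were deleted is not stated. The 10 mouse Ssx rows held at most 1 count. Tle1, a marker of synovial sarcoma, had 207 to 398 CPM in SS18-SSX tumours, 27.5 to 46.7 CPM in Snf5-null tumours and 159 to 221 CPM in combined tumours. RNA of markers of cell types other than tumour cells differed between genotypes, to an extent that varied by list. The summed level of 12 leucocyte markers was 67.9 to 518 CPM in SS18-SSX tumours, 1561 to 6671 CPM in Snf5-null tumours and 69.0 to 496 CPM in combined tumours. Of these 12, 11 were lower in combined than Snf5-null tumours and 9 were higher in Snf5-null than SS18-SSX tumours. Although the sums overlapped, 4 of the 12 were lower in combined than SS18-SSX tumours (median log2 fold change of the 12 -0.48). Cd3g and Cd3e were at 0 in every combined Myf5Cre library. Skeletal muscle markers (10) summed to 9.40 to 7490 CPM, 341 to 17399 and 172 to 1668 in the same order, and 6 of them were lower in combined than Snf5-null tumours. Red blood cell markers (5) summed to 14.7 to 409, 7.17 to 228 and 50.4 to 1284 CPM. All 5 were higher in combined than Snf5-null tumours, and 2 were higher in combined than SS18-SSX tumours. Endothelial markers (8) summed to 154 to 531, 157 to 422 and 186 to 305 CPM. Of these 8, 3 were higher and 3 lower in combined than Snf5-null tumours, 2 were lower in combined than SS18-SSX tumours and 4 were lower in Snf5-null than SS18-SSX tumours. Of all genes tested, 29.1% were higher and 20.5% lower in combined than Snf5-null tumours. These shares were 23.1% and 21.9% for combined against SS18-SSX tumours, and 22.3% and 25.9% for Snf5-null against SS18-SSX tumours. The part of cells other than tumour cells in the results below was not tested. In bulk tumour RNA, fewer cells of a type and less RNA per cell cannot be told apart.

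Brd9 and Bicral, of noncanonical BAF, were lower in both genotypes without Smarcb1 than in SS18-SSX tumours. Bicra was called lower as well, but within the Myf5Cre groups alone its difference from SS18-SSX tumours was 0.15 for Snf5-null and -0.53 for combined tumours and was not called, and its Snf5-null call also ended without any 1 of 10 libraries. The PBAF gene Brd7 was called higher in combined tumours than in either single-lesion genotype. Against SS18-SSX tumours, only combined Myf5Cre N3 and N4 (267 and 239.9 CPM) lay above the SS18-SSX range of 41.3 to 142 CPM. That call ended without a low-count filter and in a model of genotype without the Cre label. Calls are made with edgeR's quasi-likelihood test over all 22 libraries, at a Benjamini-Hochberg adjusted p below 0.05 over all 18929 genes. Differences are log2 fold changes with their standard error. In combined against Snf5-null tumours, 4 of the 9 genes were higher (Ss18, Arid2, Brd7 and Phf10) and 0 lower, beside 49.6% of all genes called, 29.1% higher and 20.5% lower. In combined against SS18-SSX tumours, 1 was higher (Brd7) and 4 were lower (Ss18l1, Brd9, Bicra and Bicral), beside 45% of all genes called, 23.1% higher and 21.9% lower. In Snf5-null against SS18-SSX tumours, 5 were lower (Ss18, Ss18l1, Brd9, Bicra and Bicral) and 0 higher, beside 48.2% of all genes called, 22.3% higher and 25.9% lower. The counts of 0 were also 0 at an unadjusted p below 0.05 and with DESeq2. Combined libraries were not wholly apart from Snf5-null or from SS18-SSX libraries for any of the 9 genes, beside 9.33% and 8.38% of all genes whose ranges did not overlap. Over both directions, counts of this size stand close to the share of all genes called, so they do not set the 9 genes apart. By direction, the 4 and 5 of 9 called lower against SS18-SSX tumours stand above the 21.9% and 25.9% of all genes. For so few genes this was not tested, and what follows is each gene's own size and direction. The median log2 fold change of the 9 genes was 0.30, 0.10 and -0.52 in these comparisons, beside medians of 0.23, -0.09 and -0.06 over all genes tested. The 3 comparisons share libraries, so their results for a gene are not independent of each other.

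**Figure D1:**
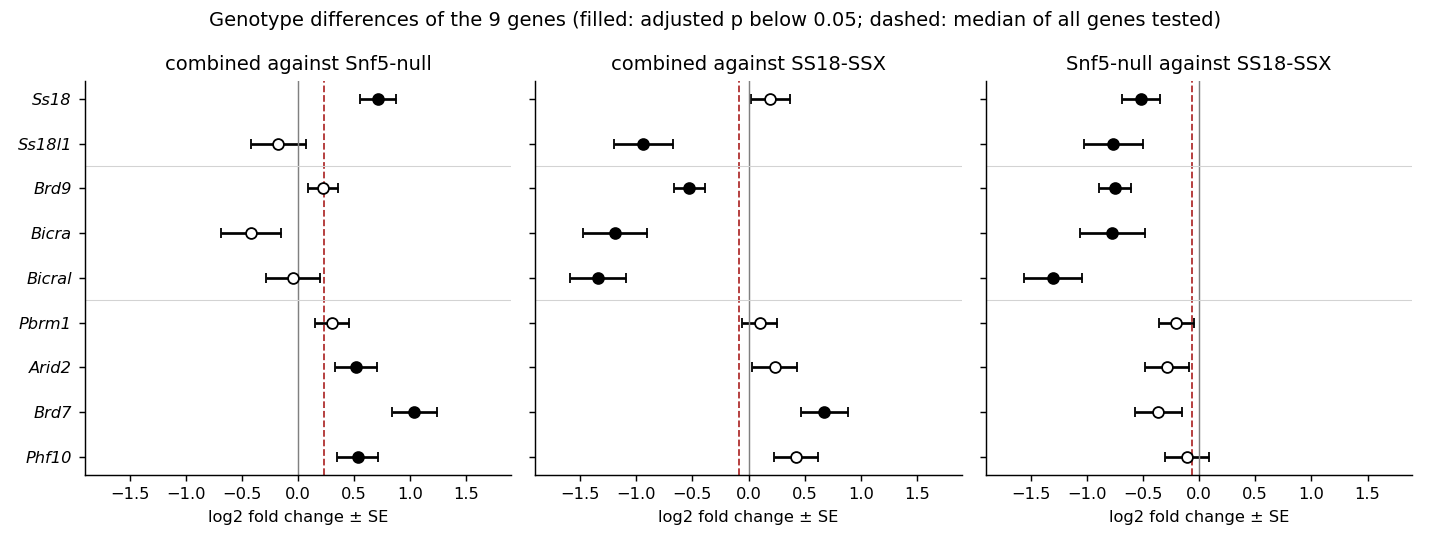
Log2 fold change ± SE of each of the 9 genes (rows) in the 3 genotype comparisons (panels), with filled points for an adjusted p below 0.05 and a dashed line at the median of all genes tested. Brd9, Bicra and Bicral lie left of 0 in both comparisons with SS18-SSX tumours, and Brd7 lies right of 0 in both comparisons of combined tumours.

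Because the median of all genes stood at 0.23 on the log2 scale in combined against Snf5-null tumours, small differences there depend on how libraries are scaled. With DESeq2's size factors in place of TMM that median was 0.12, and on leaving out single libraries it ran from 0.07 to 0.31. It was 0.07 to 0.11 without any 1 SS18-SSX library, any 1 Snf5-null Myf5Cre library, or combined Myf5Cre N1 or N4. In the same fits the median in Snf5-null against SS18-SSX tumours was 0.04 to 0.11, beside -0.06 with all libraries. The calls of these 2 comparisons that ended without a single library, listed below, ended in such fits. The part of this shift in them was not tested. Set against the median of 0.23, the differences from Snf5-null tumours were 0.80 for Brd7, 0.48 for Ss18, 0.30 for Phf10, 0.28 for Arid2, 0.07 for Pbrm1 and -0.01 for Brd9. Ss18l1, Bicral and Bicra came to -0.41, -0.28 and -0.65 on that scale.

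Ss18 (ENSMUSG00000037013, chromosome 18, 14624198 to 14682914, minus strand, GRCm38) encodes the BAF subunit whose human ortholog is the first part of the fusion. In SS18-SSX tumours it stood at 99.1, 162 and 165 CPM with Myf5Cre and at 75.7, 89.8 and 147 CPM with no Cre stated. Snf5-null tumours had 88.3, 86, 96.3, 94.3 and 92.4 CPM with TATCre and 80.3, 81.2 and 75.4 CPM with Myf5Cre. Combined tumours had 89.0, 131, 176 and 119.6 CPM with TATCre and 128, 146, 182 and 144 CPM with Myf5Cre. The Snf5-null libraries formed a narrow, low band, and of the 8 combined libraries only TATCre N49 lay inside it. Ss18 was 0.71 ± 0.16 higher in combined than Snf5-null tumours (1.64-fold, adjusted p = 0.00161), a call held on leaving out each of the 22 libraries in turn. Within the TATCre groups alone the difference was 0.50 with an adjusted p of 0.0762. Against SS18-SSX tumours the combined value did not pass (0.20 ± 0.17, adjusted p = 0.36). Snf5-null tumours were lower than SS18-SSX tumours, at -0.52 ± 0.17 (adjusted p = 0.0187). That last call ended on leaving out any of 9 libraries: SS18-SSX Myf5Cre N428 or N460, SS18-SSX B or N2, each of the 3 Snf5-null Myf5Cre libraries, or combined Myf5Cre N1 or N4. The differences were then -0.42 to -0.20 and the adjusted p 0.0736 to 0.313, the smallest difference being without SS18-SSX N2. The same call ended in a model of genotype without the Cre label (-0.38, adjusted p = 0.0818). It ended too with the Snf5-null Myf5Cre libraries N31 and N33 summed (-0.36, adjusted p = 0.136). The fusion itself carries SS18 sequence, and whether its reads were counted in this row was not tested. Of the 50-base stretches of Ss18 transcripts, 4.82% also occur in other genes, mainly Gm1826.

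Ss18l1 (ENSMUSG00000039086, chromosome 2, 180042509 to 180070201, plus strand), the paralog that can take the place of Ss18 and is best known from neurons, was a low-level gene with 43 to 498 counts per library. SS18-SSX libraries had 13.1, 21.7 and 13.4 CPM with Myf5Cre and 9.18, 11.0 and 14.6 CPM with no Cre stated. Snf5-null libraries had 5.58, 7.53, 11.2, 11.4 and 11.1 CPM with TATCre and 7.46, 6.22 and 7.13 CPM with Myf5Cre. In combined tumours the values were 12.3, 8.26, 10.3 and 5.33 CPM with TATCre and 8.66, 6.32, 3.34 and 4.12 CPM with Myf5Cre. Its 4 highest values were in SS18-SSX tumours and its lowest in combined Myf5Cre N3 and N4, with overlap in between. Ss18l1 was lower in combined than in SS18-SSX tumours, at -0.94 ± 0.26 (adjusted p = 0.00736), in all 22 fits with 1 library left out. It was lower in Snf5-null than in SS18-SSX tumours, at -0.76 ± 0.27 (adjusted p = 0.0238). The latter call ended without any 1 of 11 libraries, namely all 6 SS18-SSX libraries, the 3 Snf5-null Myf5Cre libraries and combined Myf5Cre N1 and N4. The differences were then -0.69 to -0.47 and the adjusted p 0.0526 to 0.183. That call ended as well with no low-count filter (-0.76, adjusted p = 0.0662) and with genotype without the Cre label (-0.58, adjusted p = 0.105). With N31 and N33 summed it also ended (-0.60, adjusted p = 0.118). The difference between combined and Snf5-null tumours was -0.17 ± 0.25 (adjusted p = 0.575).

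Brd9 (ENSMUSG00000057649, chromosome 13, 73937811 to 73960895, plus strand) encodes the bromodomain subunit that defines noncanonical BAF. Its levels in SS18-SSX tumours were 41.3, 53.6 and 45.7 CPM with Myf5Cre and 33.7, 45 and 35.7 CPM with no Cre stated. Snf5-null tumours had 25.1, 22.0, 23.7, 25.6 and 23.6 CPM with TATCre and 28.9, 26.2 and 24.3 CPM with Myf5Cre. Combined tumours had 30.7, 22.3, 34.2 and 21.6 CPM with TATCre and 32.3, 23.7, 38.6 and 32.2 CPM with Myf5Cre. Every Snf5-null library lay below every SS18-SSX library, a separation in the lower direction that 10.1% of all genes showed, and Brd9 was the only one of the 9 genes with it. Brd9 was lower in Snf5-null than in SS18-SSX tumours, at -0.75 ± 0.14 (1.68-fold, adjusted p = 0.000359). It was lower in combined than in SS18-SSX tumours, at -0.53 ± 0.14 (adjusted p = 0.00567), with overlapping values in combined Myf5Cre N3 and TATCre 78777. Both calls held under every alternative run. The difference between combined and Snf5-null tumours was 0.22 ± 0.13 (adjusted p = 0.176), which is 0.01 below the median of all genes.

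Bicral (ENSMUSG00000036568, chromosome 17, 46798120 to 46858482, minus strand) and Bicra (ENSMUSG00000070808, chromosome 7, 15970672 to 16047921, minus strand) encode the paired scaffold proteins of which a noncanonical BAF complex holds one. Bicral had the largest difference of the 9 genes. SS18-SSX tumours had 97.7, 48.5 and 97.1 CPM with Myf5Cre and 72.2, 101 and 101 CPM with no Cre stated. Snf5-null tumours had 19.6, 37.5, 40.6, 42.9 and 52.5 CPM with TATCre and 40.3, 30.1 and 24.7 CPM with Myf5Cre. Combined tumours had 56.1, 44.5, 36.6 and 21.9 CPM with TATCre and 43.1, 26.1, 18.9 and 27.5 CPM with Myf5Cre. Only SS18-SSX Myf5Cre N428 fell within the range of the other genotypes, and without it each SS18-SSX library was above all 16 others. Bicral was lower than in SS18-SSX tumours, at -1.34 ± 0.25 in combined tumours (2.54-fold, adjusted p = 0.000405) and at -1.30 ± 0.26 in Snf5-null tumours (2.46-fold, adjusted p = 0.00045). Both calls held under every alternative run, with log2 fold changes from -1.49 to -1.20 and from -1.38 to -1.06. The difference between combined and Snf5-null tumours was -0.04 ± 0.24 (adjusted p = 0.889). Of its 50-base stretches 10.6% also occur in other genes, mainly Gm26904, an antisense gene overlapping 772 exonic bases and holding at most 3 counts.

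Bicra behaved less evenly, since the SS18-SSX groups differed from each other. With Myf5Cre the SS18-SSX values were 18.9, 7.57 and 13.4 CPM, and with no Cre stated they were 28.2, 42.5 and 26.6 CPM. Snf5-null values were 7.73, 11.3, 8.04, 8.63 and 14.4 CPM with TATCre and 18.9, 13.3 and 12.1 CPM with Myf5Cre. Combined values were 15.5, 7.71, 6.78 and 6.16 CPM with TATCre and 14.7, 9.63, 5.2 and 7.15 CPM with Myf5Cre. The high Bicra values of the SS18-SSX genotype were thus those with no Cre stated, while the Myf5Cre libraries did not exceed 18.9 CPM, the level of the highest library of the other genotypes. Bicra was lower in combined than in SS18-SSX tumours, at -1.19 ± 0.28 (adjusted p = 0.00258), but within the Myf5Cre groups alone the difference was -0.53 with an adjusted p of 0.31. It was lower in Snf5-null than in SS18-SSX tumours, at -0.77 ± 0.29 (adjusted p = 0.0332), and within the Myf5Cre groups alone the sign turned (0.15, adjusted p = 0.804). That call also ended without any 1 of 10 libraries: 5 of the SS18-SSX libraries (all but Myf5Cre N428), the 3 Snf5-null Myf5Cre libraries and combined Myf5Cre N1 and N4, with differences of -0.73 to -0.47 and adjusted p from 0.0678 to 0.216. The Snf5-null call ended as well with no low-count filter (-0.77, adjusted p = 0.0717) and with genotype without the Cre label (-0.83, adjusted p = 0.0505). With N31 and N33 summed it also ended (-0.56, adjusted p = 0.166). The difference between combined and Snf5-null tumours was -0.42 ± 0.27 (adjusted p = 0.203), which became -0.71 with an adjusted p of 0.0386 without combined Myf5Cre N1.

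**Figure D2:**
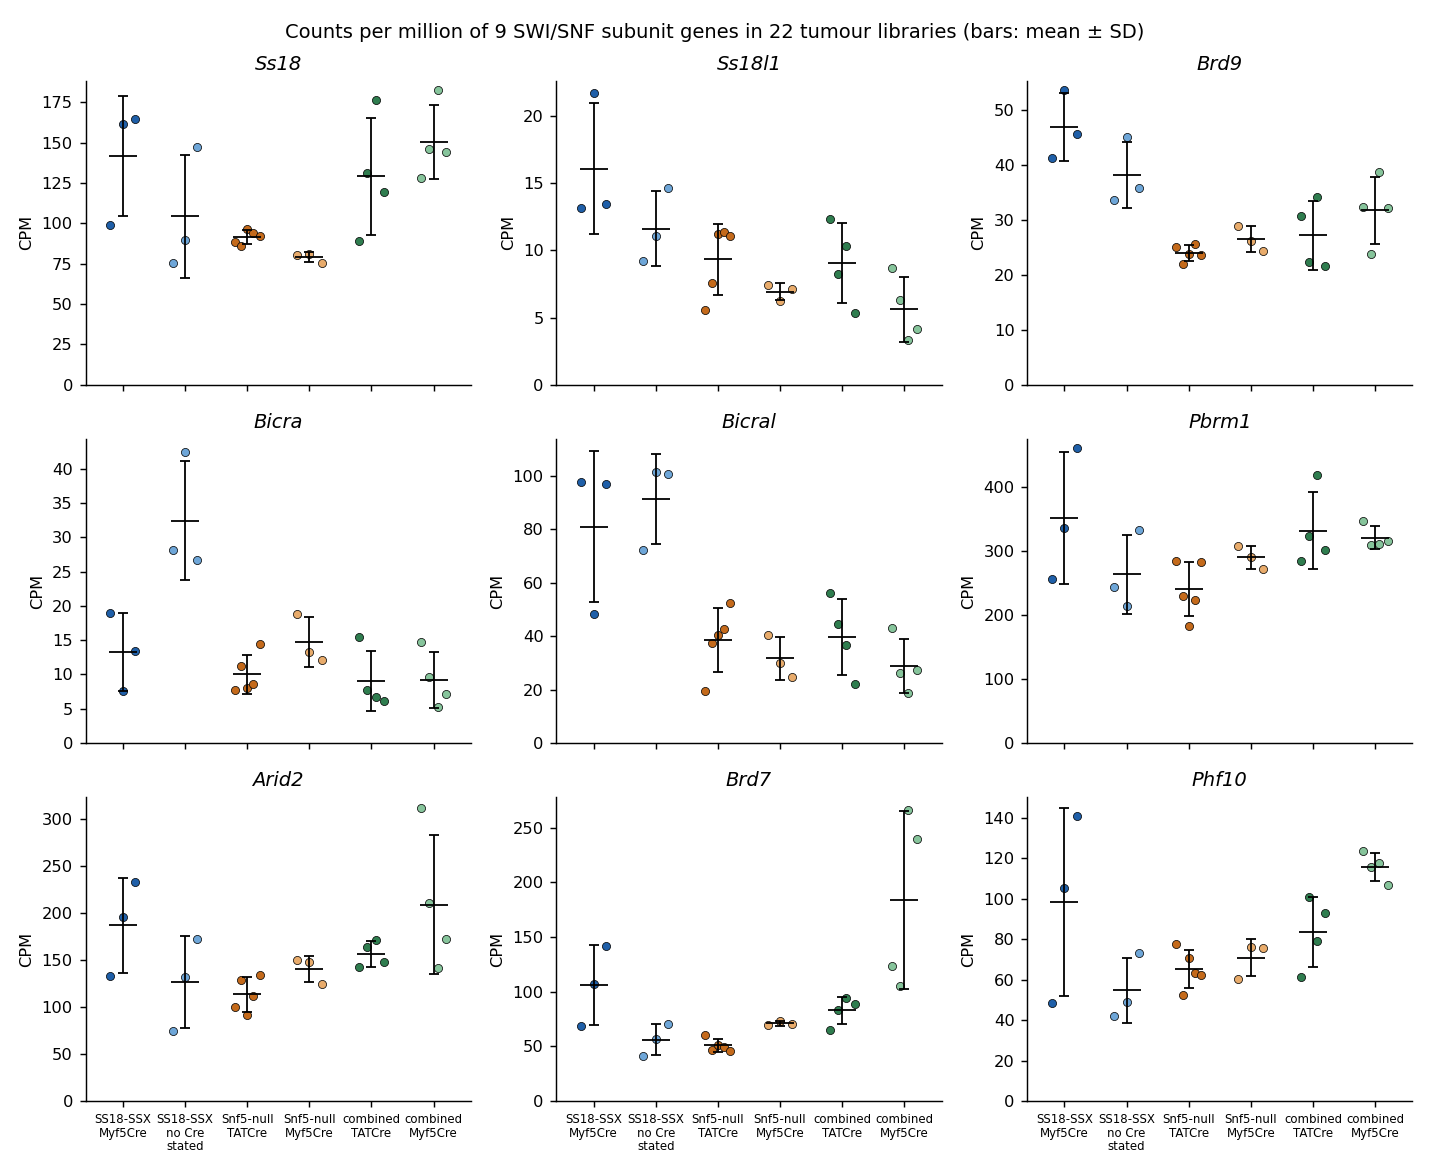
CPM of each of the 9 genes (panels) in the 22 libraries, by genotype and Cre label, with a point per library and bars for the mean ± SD of each group. Bicral is high in both SS18-SSX groups and Bicra in the SS18-SSX group with no Cre stated, and Brd7 is highest in the combined Myf5Cre group, at 106 to 267 CPM.

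Among the PBAF genes, Brd7 differed most. Brd7 (ENSMUSG00000031660, chromosome 8, 88331039 to 88362194, minus strand) encodes the bromodomain subunit of PBAF that is the relative of Brd9. SS18-SSX tumours had 68.7, 108 and 142 CPM with Myf5Cre and 41.3, 57.1 and 70.4 CPM with no Cre stated. Snf5-null tumours had 60.8, 47.1, 51.3, 49.4 and 46 CPM with TATCre and 69.1, 73.3 and 70.6 CPM with Myf5Cre. Combined tumours had 64.9, 83.4, 94.0 and 89.1 CPM with TATCre and 124, 106, 267 and 239.9 CPM with Myf5Cre. All combined libraries but TATCre N49 were above every Snf5-null library, and Myf5Cre N3 and N4 were far above the rest. Brd7 was 1.04 ± 0.20 higher in combined than Snf5-null tumours (2.05-fold, adjusted p = 0.000377), in all 22 fits with 1 library left out and in the 9 other alternatives. Myf5Cre N3 and N4 were neither summed nor left out together, so these runs do not cover the case of both coming from 1 animal. Within the TATCre groups, a difference that does not use N3 or N4, it was 0.70 (adjusted p = 0.0432). Within the Myf5Cre groups the difference was 1.37 (adjusted p = 0.00238). Against SS18-SSX tumours Brd7 was higher in combined tumours by 0.68 ± 0.21 (adjusted p = 0.0141). That call ended without a low-count filter (0.53, adjusted p = 0.0719) and in a model of genotype without the Cre label (0.71, adjusted p = 0.0743). The difference between Snf5-null and SS18-SSX tumours was -0.36 ± 0.21 (adjusted p = 0.16).

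Phf10 (ENSMUSG00000023883, chromosome 17, 14945009 to 14961273, minus strand) encodes a PHD-finger subunit of PBAF. SS18-SSX tumours had 48.7, 105 and 141 CPM with Myf5Cre and 42.0, 49.1 and 73.0 CPM with no Cre stated. Snf5-null tumours had 77.6, 52.6, 70.8, 63.2 and 62.4 CPM with TATCre and 60.3, 76.3 and 75.8 CPM with Myf5Cre. Combined tumours had 61.5, 101, 78.9 and 93.0 CPM with TATCre and 124, 116, 117 and 107 CPM with Myf5Cre. As for Brd7, TATCre N49 was the only combined library inside the Snf5-null range, and over all genes it was the library least like its group by chi-square. Phf10 was 0.53 ± 0.18 higher in combined than Snf5-null tumours (adjusted p = 0.0217), but the call was kept in only 3 of 9 other alternatives. It ended with DESeq2's size factors in edgeR (0.42, adjusted p = 0.0557), within the TATCre groups (0.36, adjusted p = 0.256) and Myf5Cre groups (0.71, adjusted p = 0.0576), with no filter, with genotype alone and with N31 and N33 summed (0.39 to 0.43). It also ended without any 1 of 10 libraries. These were 5 SS18-SSX libraries (all but Myf5Cre N381), the 3 Snf5-null Myf5Cre libraries and combined Myf5Cre N1 and N4, and the differences were then 0.34 to 0.42 with adjusted p from 0.0706 to 0.208. Against SS18-SSX tumours the difference was 0.42 ± 0.19 (adjusted p = 0.0816), and leaving out SS18-SSX Myf5Cre N460, SS18-SSX N2, Snf5-null TATCre N1 or combined TATCre N49 brought it to 0.48 to 0.60 and an adjusted p of 0.0196 to 0.0494. An antisense gene, 1600012H06Rik, overlaps 470 exonic bases of Phf10 and holds up to 1181 counts, and the strand setting of the counting was not given in the sources used here.

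Brd7 and Phf10 both had their highest group mean in combined Myf5Cre tumours, above every combined TATCre library, so the bases before their start sites are shown here, from RefSeq's GRCm38.p6 annotation and 5′ to 3′ on the gene's strand. The RefSeq table held 5 of the 9 genes (Ss18l1, Brd9, Pbrm1, Brd7 and Phf10). For Brd7 the stretch is chr8:88362195-88362422 (228 bases, minus strand, ending 22 bases before the start site), and for Phf10 it is chr17:14961274-14961510 (237 bases, minus strand, ending 13 bases before the start site). Neither stretch holds annotated exon bases. Capitals mark the GC box GGGCGG or its reverse complement CCGCCC, counted with overlaps.
Brd7: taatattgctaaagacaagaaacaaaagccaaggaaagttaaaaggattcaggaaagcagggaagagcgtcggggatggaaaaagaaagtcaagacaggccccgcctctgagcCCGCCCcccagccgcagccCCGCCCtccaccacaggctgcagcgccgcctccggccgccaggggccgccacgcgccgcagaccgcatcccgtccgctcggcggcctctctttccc
Phf10: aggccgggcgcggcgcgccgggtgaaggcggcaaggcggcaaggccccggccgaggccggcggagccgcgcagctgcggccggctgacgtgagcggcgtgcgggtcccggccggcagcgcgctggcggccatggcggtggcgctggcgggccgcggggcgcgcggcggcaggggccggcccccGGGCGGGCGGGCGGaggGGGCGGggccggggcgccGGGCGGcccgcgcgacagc
The Brd7 stretch holds 2 GC boxes and 19 CpG sites at 63.2% G + C, and the Phf10 stretch 5 GC boxes and 47 CpG sites at 88.2% G + C. A GC box on either strand lies within 33% of the 32536 promoter windows of 250 bases in the table. Searched in the same way on both strands, the ETS motif CCGGAA (12.1% of windows), the E-box CACGTG (6.04%), CCAAT (33.8%) and TATAAA (12.3%) had no match in either stretch. These are matches of letters and describe the sequence only.

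Arid2 (ENSMUSG00000033237, chromosome 15, 96287518 to 96404992, plus strand) encodes the ARID scaffold of PBAF. SS18-SSX tumours had 133, 196 and 233 CPM with Myf5Cre and 75.1, 132 and 173 CPM with no Cre stated. Snf5-null tumours had 100.2, 129, 91.7, 112 and 134 CPM with TATCre and 150.0, 148 and 124 CPM with Myf5Cre. Combined tumours had 142, 165, 172 and 148 CPM with TATCre and 312, 211, 141 and 172 CPM with Myf5Cre. The value of combined Myf5Cre N1 was the highest of all 22, and the genotypes overlapped. Arid2 was 0.52 ± 0.19 higher in combined than Snf5-null tumours (adjusted p = 0.027), and the difference was 0.25 (adjusted p = 0.253) without combined Myf5Cre N1. The call ended as well without any 1 of the 6 SS18-SSX libraries, the 3 Snf5-null Myf5Cre libraries or combined Myf5Cre N4, at 0.33 to 0.42. With any 1 of those libraries left out the median of all genes was 0.09 to 0.11, beside 0.23 with all 22. The call also ended in 7 of 9 other alternatives. The differences from SS18-SSX tumours were 0.23 ± 0.20 for combined (adjusted p = 0.345) and -0.29 ± 0.20 for Snf5-null tumours (adjusted p = 0.24).

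Pbrm1 (ENSMUSG00000042323, chromosome 14, 31019138 to 31121592, plus strand), whose product reads acetylated histones through an array of bromodomains, had the highest mean per length of the 9 genes in each genotype. Its lowest, median and highest values were 213, 295 and 461 CPM in SS18-SSX, 183, 277 and 308 CPM in Snf5-null and 284, 313 and 418 CPM in combined tumours, so that all genotypes overlapped. The difference of combined from Snf5-null tumours was 0.30 ± 0.15 (adjusted p = 0.0944), and it passed the threshold without Snf5-null TATCre N1 or N51 or combined TATCre N49 or 78780 (0.38 to 0.40, adjusted p from 0.0267 to 0.045). Against SS18-SSX tumours the differences were 0.10 ± 0.16 for combined (adjusted p = 0.62) and -0.20 ± 0.16 for Snf5-null tumours (adjusted p = 0.299). The Snf5-null and SS18-SSX genotypes were not called apart for any PBAF gene, with Phf10 at -0.11 ± 0.20 (adjusted p = 0.666).

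Levels of different genes can be set side by side only per length, as CPM per kb of merged exons. Merged exons join all annotated transcripts of a gene, so the length can exceed that of the transcripts present. By how much was not measured, and the order of genes and the size of ratios between them depend on it. On this scale combined tumours (n = 8) had 36.9 ± 4.68 for Pbrm1 (mean ± SD), 25.4 ± 14.5 for Brd7, 20.3 ± 4.31 for Phf10, 17.0 ± 5.28 for Arid2 and 14.8 ± 3.21 for Ss18. The noncanonical BAF genes were lower there, at 5.01 ± 1.88 for Bicral, 4.24 ± 0.90 for Brd9 and 1.15 ± 0.49 for Bicra, and Ss18l1 was at 1.69 ± 0.72. In SS18-SSX tumours (n = 6) Bicral stood at 12.6 ± 3.14, Brd9 at 6.12 ± 1.05, Bicra at 2.88 ± 1.56, Ss18 at 13.1 ± 4.18 and Ss18l1 at 3.19 ± 0.99, while Pbrm1 stood at 34.7 ± 10.2. Snf5-null tumours (n = 8) had 5.26 ± 1.55 for Bicral, 3.59 ± 0.30 for Brd9, 1.48 ± 0.48 for Bicra, 29.3 ± 4.81 for Pbrm1 and 11.1 ± 2.17 for Brd7.

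Ratios of genes within a library do not depend on how libraries are scaled. The ratios were chosen with the levels in view and are given without a test. The summed CPM per kb of Brd9, Bicra and Bicral over that of Pbrm1, Arid2, Brd7 and Phf10 was 0.301 ± 0.119 (SD) in SS18-SSX, 0.160 ± 0.035 in Snf5-null and 0.109 ± 0.043 in combined tumours, with ranges of 0.160 to 0.465, 0.108 to 0.195 and 0.0729 to 0.207. The SS18-SSX libraries Myf5Cre N428 and N460, at 0.160 and 0.173, lay among the Snf5-null values, and the other 4 lay above every library of the other genotypes. Brd9 over Brd7 was 0.444 ± 0.142, 0.329 ± 0.049 and 0.199 ± 0.084 in the same order, and Ss18l1 over Ss18 was 0.250 ± 0.045, 0.209 ± 0.046 and 0.125 ± 0.079. For both of these ratios the combined Myf5Cre group was the lowest, at 0.144 ± 0.047 and 0.0855 ± 0.046. Combined TATCre N49 was the highest combined library in each of these ratios, at 0.207, 0.356 and 0.300, within or above the Snf5-null values.

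**Figure D3:**
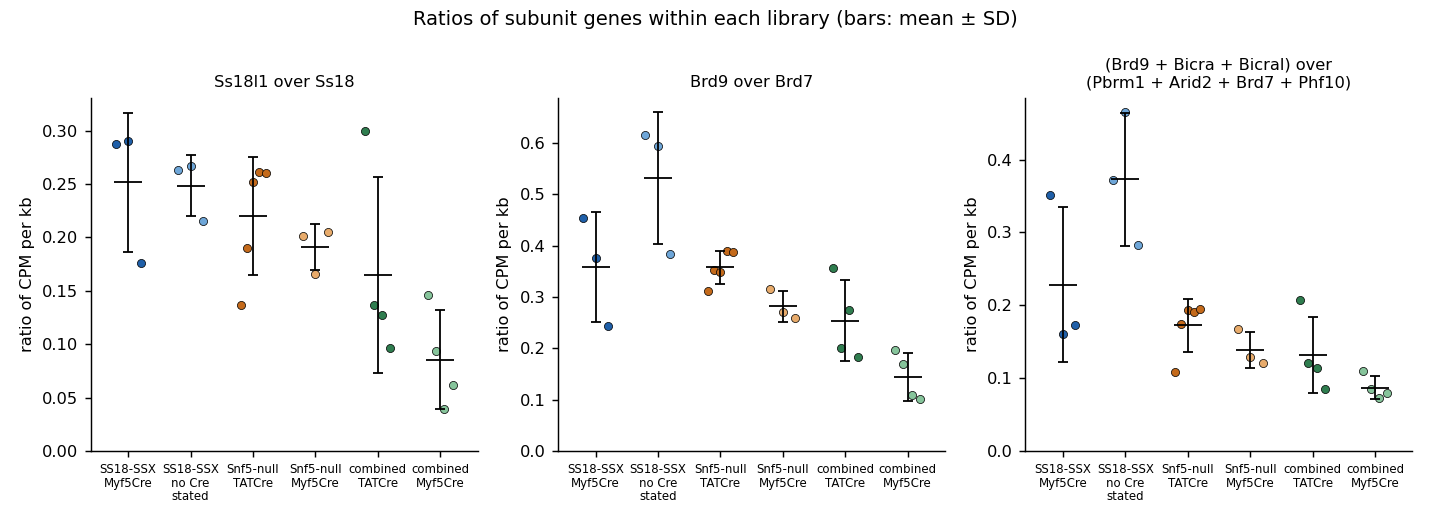
Ratios of CPM per kb within each library, by genotype and Cre label, for Ss18l1 over Ss18, Brd9 over Brd7, and the noncanonical BAF sum over the PBAF sum, with a point per library and bars for the mean ± SD of each group. The third ratio runs from 0.160 to 0.465 in SS18-SSX, from 0.108 to 0.195 in Snf5-null and from 0.0729 to 0.207 in combined tumours.

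The Cre label was compared within each genotype that carries both labels. In combined tumours, 1 of the 9 genes was called between Myf5Cre and TATCre, beside 1.82% of all genes called and 0.571% called higher. This was Brd7, higher with Myf5Cre by 1.15 ± 0.27 (2.22-fold, adjusted p = 0.0388), with every Myf5Cre library above every TATCre library. Phf10 showed the same separation without passing the test (0.47 ± 0.25, adjusted p = 0.362), and 3.55% of all genes had ranges apart in that direction. The Brd7 call ended without any 1 of 9 libraries, at 0.92 to 1.18 and an adjusted p of 0.0501 to 0.138: combined Myf5Cre N3 or N4, combined TATCre N49 or 78774, Snf5-null TATCre N43L or N43R, Snf5-null Myf5Cre N31 or N33, or SS18-SSX B. For the other 7 genes the Cre difference in combined tumours was -0.69 for Ss18l1, -0.46 for Bicral, -0.05 for Pbrm1, 0.03 for Bicra, 0.22 for Ss18 and Brd9 and 0.42 for Arid2. In Snf5-null tumours 0 of the 9 genes were called, beside 4.97% of all genes, and 0 also at an unadjusted p below 0.05 and with DESeq2. There the ranges of Brd7 were apart, higher with Myf5Cre (0.48 ± 0.28, adjusted p = 0.359), as 8.38% of all genes were, and those of Ss18 were apart, lower with Myf5Cre (-0.21 ± 0.23, adjusted p = 0.686), as 8.63% were. The other 7 differences there were -0.43 for Ss18l1, -0.29 for Bicral, 0.12 for Phf10, 0.14 for Brd9, 0.27 for Pbrm1, 0.31 for Arid2 and 0.56 for Bicra. Of the other SWI/SNF subunits described below, 1 was called for Cre, the ATPase gene Smarca4, higher with Myf5Cre in Snf5-null tumours by 0.93 ± 0.24 (adjusted p = 0.0335). For Smarcb1 the Cre difference was -0.32 in Snf5-null (adjusted p = 0.626) and -0.84 in combined tumours (adjusted p = 0.145), not called in either. Whether the Cre difference depended on the genotype was tested as an interaction, which called 0 of the 9 genes beside 2.42% of all genes, and likewise 0 at an unadjusted p below 0.05 and with DESeq2. Brd7 had the largest interaction of the 9, at 0.67 ± 0.39 (adjusted p = 0.392), followed by Bicra at -0.53 ± 0.53 (adjusted p = 0.677). The others were 0.43 for Ss18, 0.36 for Phf10, -0.32 for Pbrm1, -0.26 for Ss18l1, -0.17 for Bicral, 0.11 for Arid2 and 0.08 for Brd9. For Smarcb1 the interaction was -0.52 ± 0.42 (adjusted p = 0.577). The leucocyte markers summed to 331 to 496 CPM in combined TATCre and 69.0 to 193 CPM in combined Myf5Cre tumours, and their part in these differences was not tested.

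Within the SS18-SSX genotype the Myf5Cre group and the group with no Cre stated also differ in number series, so the Cre label and the series cannot be told apart. Between them edgeR called 0 of the 9 genes, beside 2.11% of all genes, while 3 had an unadjusted p below 0.05 (Bicra, Brd7 and Phf10) and DESeq2 called 1 (Bicra). The difference of the Myf5Cre group was -1.29 ± 0.44 for Bicra (adjusted p = 0.127), with ranges apart in that direction as for 7.58% of all genes, and DESeq2 gave -1.31 with an adjusted p of 0.0483. The same difference was 0.91 ± 0.32 for Brd7 and 0.85 ± 0.29 for Phf10 (adjusted p = 0.134 and 0.137), and without SS18-SSX Myf5Cre N381 the Phf10 difference was 1.17 with an adjusted p of 0.0173. For the other genes it was 0.56 for Arid2, 0.47 for Ss18l1, 0.44 for Ss18, 0.41 for Pbrm1, 0.30 for Brd9 and -0.17 for Bicral. Of the other SWI/SNF subunits 1 was called, Smarce1, higher in the Myf5Cre group by 1.51 ± 0.36 (adjusted p = 0.0373). For Smarcb1 the difference of the Myf5Cre group was -0.66 ± 0.33 (adjusted p = 0.333). It was not called, but its ranges were apart in that direction, as for 7.58% of all genes. The order of the 6 groups by mean level therefore differed between genes: Brd7, Phf10, Arid2 and Ss18 had the combined Myf5Cre group first and the SS18-SSX Myf5Cre group second, with a gap smaller than the larger of the paired SDs. For Bicral and Bicra the SS18-SSX group with no Cre stated came first, and its gap to the next group was beyond that SD for Bicra and within it for Bicral. Brd9 and Ss18l1 were highest in the SS18-SSX Myf5Cre group, with a gap beyond the SD for Brd9.

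The 21 other SWI/SNF subunits give the setting for these genes, and 20 of them were tested, Actl6b being too low. In combined against Snf5-null tumours, 8 were higher and 2 lower, beside 29.1% and 20.5% of all genes. The median log2 fold change of the 20 was 0.46, beside 0.23 for all genes. The largest rises were Bcl11b (3.25 ± 0.67, adjusted p = 0.000708) and Dpf1 (2.41 ± 0.58, adjusted p = 0.00248), both of canonical BAF, then Smarce1 (0.91 ± 0.22, adjusted p = 0.00288) and the ATPase Smarca2 (0.83 ± 0.30, adjusted p = 0.0269). The 2 lower were Smarcb1, at -2.66 ± 0.22, and Smarcd3, at -0.77 ± 0.24 (adjusted p = 0.0125), which shares 44% of its 50-base stretches with other genes, mainly Chpf2. In combined against SS18-SSX tumours, 4 were higher and 7 lower, beside 23.1% and 21.9% of all genes. Actl6a, an actin-like subunit of every form, was 1.68 ± 0.36 higher (adjusted p = 0.00128), and Smarce1, Bcl7c and Smarcd2 were 0.82, 0.63 and 0.54 higher. Smarce1 stood at 64.8 ± 22.8 CPM in SS18-SSX Myf5Cre (n = 3) and 22.7 ± 8.92 CPM in SS18-SSX tumours with no Cre stated (n = 3), beside 67.3 ± 17.2 CPM in combined Myf5Cre and 68.1 ± 28.4 CPM in combined TATCre tumours (n = 4 each). Smarcb1 was lower, at -4.99 ± 0.25, and Dpf3, Bcl11a and Smarca2 were lower, at -2.79, -2.49 and -1.77. In Snf5-null against SS18-SSX tumours, 1 was higher, Actl6a by 1.07 ± 0.36 (adjusted p = 0.0194), and 9 were lower, led by Bcl11b (-4.84 ± 0.74), Bcl11a (-3.83 ± 0.95), Dpf3 (-3.67 ± 0.83) and Dpf1 (-2.95 ± 0.61), with Smarcb1 at -2.33 ± 0.23. In that comparison 22.3% of all genes were called higher and 25.9% lower. Of the 7 genes of canonical BAF alone, 5 were lower there. The median of the 7 was -2.95, beside -0.77 for the 3 noncanonical BAF genes and -0.24 for the 4 PBAF genes. The ARID1 genes were not called, at -0.33 ± 0.25 for Arid1a (adjusted p = 0.289) and -0.30 ± 0.34 for Arid1b (adjusted p = 0.484). Dpf2 was lower by a smaller amount, at -0.67 ± 0.14 (adjusted p = 0.000696). Of Smarce1 and Actl6a, 15% and 10.1% of the 50-base stretches occur in other genes.

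The 9 genes also varied among the libraries of a group. Correlations of log2 CPM are across the 22 libraries with the mean of each group subtracted, and libraries share depth and cell makeup, so they are given as a description. Of the 36 pairs, the 8 with the largest absolute Pearson r are given first. Bicra and Bicral had an r of 0.80. Ss18 had 0.69 with Phf10, 0.68 with Brd7 and 0.63 with Pbrm1, while Ss18l1 with Bicral and Pbrm1 with Phf10 both had 0.60. Bicra had -0.62 with Brd7 and -0.59 with Ss18. Among the other pairs of PBAF genes, r ran from 0.04 (Arid2 with Brd7) to 0.58 (Pbrm1 with Arid2). Brd9 had no r beyond 0.43 with any of the other 8, and its r with Bicra and Bicral, its partners in noncanonical BAF, was -0.06 and 0.05.

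**Figure D4:**
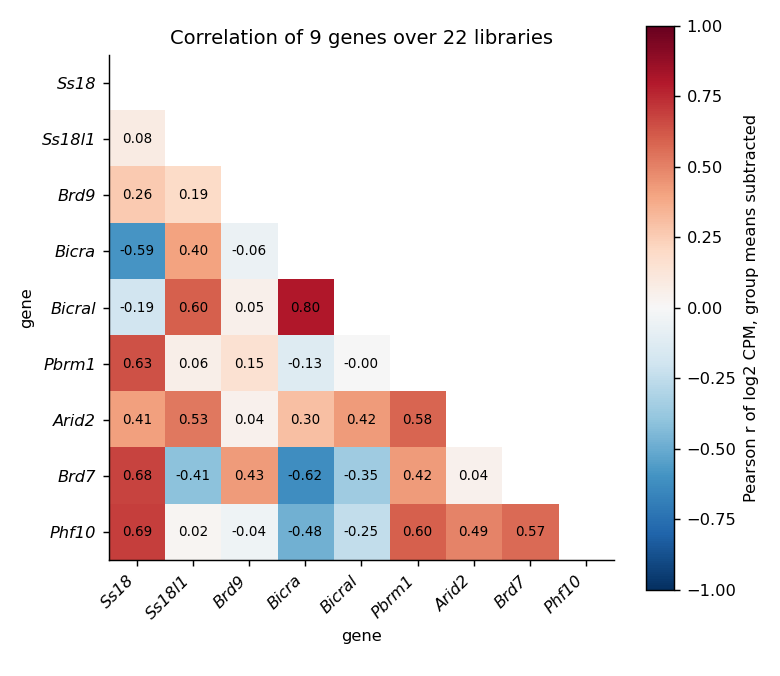
Pearson r of log2 CPM for each pair of the 9 genes over 22 libraries after group means were subtracted (red positive, blue negative). Bicra and Bicral stand at 0.80, and Bicra against Brd7 at -0.62.

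For each gene, the genes with the most similar pattern over the 22 libraries were those with the highest Pearson r of log2 CPM among all genes tested. For Bicral these were Smarcc2, a core subunit of canonical BAF and PBAF (r = 0.95, and 0.93 with group means subtracted), Rab11fip3 (0.95) and Ltbp3 (0.93). Smarcc2 itself was lower than in SS18-SSX tumours, at -1.13 ± 0.22 in combined (adjusted p = 0.00064) and at -0.89 ± 0.23 in Snf5-null tumours (adjusted p = 0.00359). Bicra was nearest to Kmt2d, a histone H3 lysine methyltransferase (0.95, and 0.94 within groups), Setd1b (0.95) and Zdhhc9 (0.94). Ss18 was nearest to Sephs1 (0.93), Blzf1 (0.90) and the histone deacetylase Hdac2 (0.90, and 0.92 within groups). Brd7 was nearest to Krr1 (0.92), Chpt1 and Zfp511 (both 0.90), and Phf10 to Dek (0.90), Mkrn3 and Zfp131 (both 0.90). Pbrm1 was nearest to Cnot1, Top1 and the core subunit Smarcc1 (0.89, 0.89 and 0.88), and Arid2 to Alg10b, Tut4 and Tug1 (0.88, 0.86 and 0.86). Ss18l1 was nearest to Zfp974, Paqr8 and Mgat3 (0.90, 0.89 and 0.88), and Brd9 to 4930452B06Rik, Mettl3 and 2610005L07Rik (0.88, 0.88 and 0.87), of which 2610005L07Rik had only 0.42 within groups. Genes ranked by likeness over all tested genes are high by that choice.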

How the data were processed

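RNA was taken from fresh-frozen mouse tumours with an RNeasy Mini kit and made into TruSeq Stranded mRNA libraries, per the labels' protocols. For 22 libraries the authors deposited unnormalised counts, whole numbers per gene ID. Tools named in the submitters' processing notes, without a role, are STAR 2.7.5a, cutadapt, RSEM, featureCounts and DESeq2, with the build mm10. The treatment of reads that match several genes was not given in the sources used here. Of 48440 IDs, 48058 matched a symbol and position in GENCODE M21 (GRCm38, the assembly of mm10). The other 382 stayed in the fit under their ID where they passed the filter.

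The analysis used R 4.3.3 and edgeR 4.0.16. Genes were kept by filterByExpr (minimum count 10, minimum total 15, over the 6 groups), leaving 18929 with 99.91% of counts. Libraries were scaled by TMM, and the quasi-likelihood model had 1 mean per group, with the Cre groups of a genotype weighted equally. Every adjusted p is edgeR's, by Benjamini-Hochberg over all genes tested, unless DESeq2 is named. CPM uses TMM-adjusted library sizes, and correlations use log2 CPM with a prior count of 2. Groups come from the titles and genotype labels. The 9 genes, the gene lists and the tests were chosen with earlier results of these data known. All 9 genes are named in every comparison, as are Smarcb1, the other subunits that passed (at most the 4 largest per direction) and the 3 most alike genes. The differences of Smarcc2, the genes with shared stretches and the neighbours of start sites are outside that rule, and their values were seen first. Alternatives were RLE scaling, no filter, DESeq2 1.42.0, genotype without Cre, single Cre labels, the 16 libraries of 1 number series, summed library pairs and leaving out each library.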

Additional observations from a re-analysis of the deposited data

Results flagged for a closer look

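Within the groups of 4 or 5 libraries, the highest and lowest value of each gene was compared with the rest of its group by Dixon's gap over range, in 27 sets of 1 gene in 1 group. In 2 of them a library stood apart, and chance gives about 1 in 20 such sets. Bicra in combined TATCre N49 stood at 15.5 CPM, with the other 3 libraries at 6.16 to 7.71 CPM (gap over range 0.833, critical value 0.829). Pbrm1 in combined Myf5Cre N1 stood at 347 CPM, with the other 3 at 309 to 316 CPM (gap over range 0.834).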

How the results depend on the processing

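Of 1800 comparisons of a value with an alternative, 1701 kept their side of the threshold, 87 no longer passed, 11 newly passed and 1 reversed, Bicra in Snf5-null against SS18-SSX tumours at 0.15 within the Myf5Cre groups. Of the 1701, 36 changed sign, none of them called in the fit reported. The number of the 9 genes called in combined against Snf5-null tumours, 4, was 2 within the Myf5Cre groups, 1 within the TATCre groups, and 2 with RLE scaling, with no filter, with genotype alone and with N31 and N33 summed. In Snf5-null against SS18-SSX tumours, 5 became 3 with no filter, 2 with genotype alone and 2 with N31 and N33 summed. For Cre in combined tumours, 1 became 0 with N43L and N43R summed and 0 with N31 and N33 summed. Between the SS18-SSX groups 0 became 1 with DESeq2. Combined Myf5Cre N3 and N4, the pair with the lowest chi-square, were not summed in any alternative. Leaving out 1 library gave 2 to 5, 5 to 6 and 2 to 5 called genes in combined against Snf5-null, combined against SS18-SSX and Snf5-null against SS18-SSX tumours. It gave 0 to 0 for Cre in Snf5-null tumours, 0 to 1 for Cre in combined tumours, 0 to 0 for the interaction and 0 to 1 between the SS18-SSX groups. The cause of these changes was not tested. Of all genes called in combined against Snf5-null tumours, 58.7% were higher, and 51.2% with RLE scaling, 46.1% with no filter, 48.8% with genotype alone, 44.9% with N31 and N33 summed and 61.3% with N43L and N43R summed. No paired analysis was possible because any pair of groups shares at most 1 tag: N49 is in Snf5-null and combined TATCre, N1 in Snf5-null TATCre and combined Myf5Cre, and N2 in SS18-SSX with no Cre stated and combined Myf5Cre. Ss18l1, with as few as 43 counts in a library (combined Myf5Cre N3), rests on the fewest reads.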

Other observations

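Some of the 9 genes start beside another gene that is read the opposite way. Exons of Psma7, Trip13 and Gnl3 lie within the 250 bases before the start sites of Ss18l1, Brd9 and Pbrm1. These neighbours were picked by position. Psma7, a proteasome subunit gene, was higher in combined than in SS18-SSX tumours by 2.49 ± 0.38 (edgeR adjusted p = 0.000101), while Ss18l1 was lower, at -0.94 ± 0.26. Trip13, an ATPase gene of chromosome segregation, was higher by 2.15 ± 0.49 (adjusted p = 0.00189), while Brd9 was lower, at -0.53 ± 0.14. Gnl3, which encodes nucleostemin, was higher by 2.37 ± 0.32 (adjusted p = 3.99e-05), and the difference of Pbrm1 was 0.10 ± 0.16. In Snf5-null against SS18-SSX tumours, Psma7 and Gnl3 were higher by 1.47 ± 0.37 and 1.78 ± 0.32 (adjusted p = 0.00333 and 0.000186), and the difference of Trip13 was 1.02 ± 0.47 (adjusted p = 0.0821). Gnl3 and Pbrm1 share 15 exonic bases on opposite strands.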
